A study of Mus musculus with 6 samples.

Results

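Axon guidance genes encode the cell-surface and secreted cues with which cells attract, repel and sort one another. The 45 genes examined here were taken by symbol from 4 signalling systems, namely ephrins with Eph receptors, semaphorins with plexins and neuropilins, Slits with Robo receptors, and netrin with its receptors. A gene was represented by 1 probe set, namely the brightest on average across the 6 arrays of those annotated with exactly 1 symbol. Of the 45 genes 44 had such a probe set, out of 18193 genes in all, and Ephb2 was not analysed here.

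The series asked about galectins 1 and 3 in the injured mouse brain and profiled eGFP-positive cells obtained by flow sorting of somatosensory grey matter. For the 3 reactive samples the mice carried TgN(hGFAP-EGFP) GFEA, in which a human GFAP promoter drives eGFP, and had been given a cortical stab wound (depth 0.7 mm, length between 1 and 1.2 mm) 5 days earlier. For the 3 non-reactive samples the matching region was taken from mice without injury that carried Tg(Aldh1l1-eGFP)OFC789Gsat, in which eGFP marks cells that use the Aldh1l1 gene. All mice were FVB/N, 2 to 3 months old and of undetermined sex, and each array held a pool of about 15 animals. The protocol also describes labelling of proliferating cells with BrdU, without saying whether the sorted pools received it. Injury and reporter line coincided, so their contributions cannot be told apart.

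Ephrins are membrane-bound ligands, and both ephrin and Eph receptor can signal into the cell that carries them when neighbouring cells touch. Semaphorins act through plexins, and the secreted class 3 semaphorins bind neuropilins that sit beside plexin-A receptors. Slits repel through Robo receptors, while netrin attracts through Dcc and repels through Unc5 receptors. In the injured cortex these systems are known for limiting axon growth, for sorting glia and fibroblasts at the wound and for steering blood vessels.

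The 6 arrays had medians of 4.65 to 4.73 on the log2 scale. They correlated at 0.901 to 0.921 within the reactive group, at 0.95 to 0.963 within the non-reactive group and at 0.889 to 0.93 between the groups. Reactive replicate 3 stood apart on the second principal component, at -99.3 against 78 and 57.1 for the other reactive arrays. The 3′ minus 5′ difference of the control transcripts, a sign of RNA length, was lower in reactive samples for Pcx (1.44 against 3.46 log2 units in non-reactive samples), Actb (3.38 against 5.05) and Gapdh (4.17 against 5.19). That of 18S rRNA was higher (0.83 in reactive and -1.16 in non-reactive samples), and that of Tfrc was 0.55 in reactive and 0.43 in non-reactive samples. The 11 measured astrocyte markers had means above the median level in both groups. Aldoc was at 12.67 in reactive and 13.77 in non-reactive samples, and Gja1 at 11.81 in reactive and 13.19 in non-reactive samples. Sox9 was at 5.60 in reactive and 7.91 in non-reactive samples. At a limma unadjusted p of 0.05 or less, 9 of the 11 were lower in reactive samples and 1 higher. Of other cell types, 6 of 14 microglia and macrophage markers, 2 of 9 blood leukocyte markers and 1 of 10 oligodendrocyte markers rose with limma after adjustment. Of the endothelial, mural, neuronal, fibroblast and oligodendrocyte precursor markers 0 passed. At a limma unadjusted p of 0.05 or less, 8 of 10 oligodendrocyte markers were higher and 1 lower, beside 7.88% and 7.13% of all genes. All 9 oligodendrocyte precursor markers had differences above 0, beside 60.7% of all genes, 1 of them at that p.

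No axon guidance gene passed the test between reactive and non-reactive samples. With limma and Benjamini-Hochberg adjustment over all probe sets, 0 of 44 passed in either direction, and the lowest adjusted p was 0.188. Over all genes 173 of 18193, or 0.951%, passed, with 0.39% higher and 0.561% lower in reactive samples. That count was 20 when reactive replicate 1 was left out, 74 for reactive replicate 2, 77 for reactive replicate 3 and 0 for each non-reactive array. At an unadjusted p of 0.05 or less the count was 7 of 44 members, or 15.9%, beside 15% of all genes. For 8 members, or 18.2%, the values of the groups were fully separate, beside 21.7% of all genes. Reactive arrays were lower in 6 of these (8.2% of all genes) and higher in 2 (13.5% of all genes). The overall shares lay near the background. In sorted bulk samples fewer cells of a type and less RNA per cell cannot be told apart.

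The 7 members were Plxnb1, Sema4b, Ephb3, Epha4 and Sema6d, which had lower means in reactive samples (5 members, beside 7.13% of all genes), and Slit2 and Plxna1, which had higher means (2 members, beside 7.88%). Differences larger than 2-fold were seen for 9 members, or 20.5%, beside 12.3% of all genes. These were Epha5, Sema4b, Sema6d, Ephb3 and Plxnb1 below 0, and Sema5a, Nrp2, Slit2 and Plxna1 above 0. The median difference of the members was 0.16 on the log2 scale, beside 0.12 for all genes, and 28 of 44 lay above 0 (63.6%, beside 60.7%). The median absolute difference was 0.429 for members and 0.341 for all genes. Means below the median level were found for 6 of 44 members and for 6079 of 18193 genes. The members and all genes were not matched for level, so these sizes are not a like comparison. For 14 members, or 31.8%, the 95% interval lay wholly within a 2-fold change in either direction, beside 42.4% of all genes. The other 30 intervals reached past a 2-fold change on at least 1 side.

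**Figure D1:**
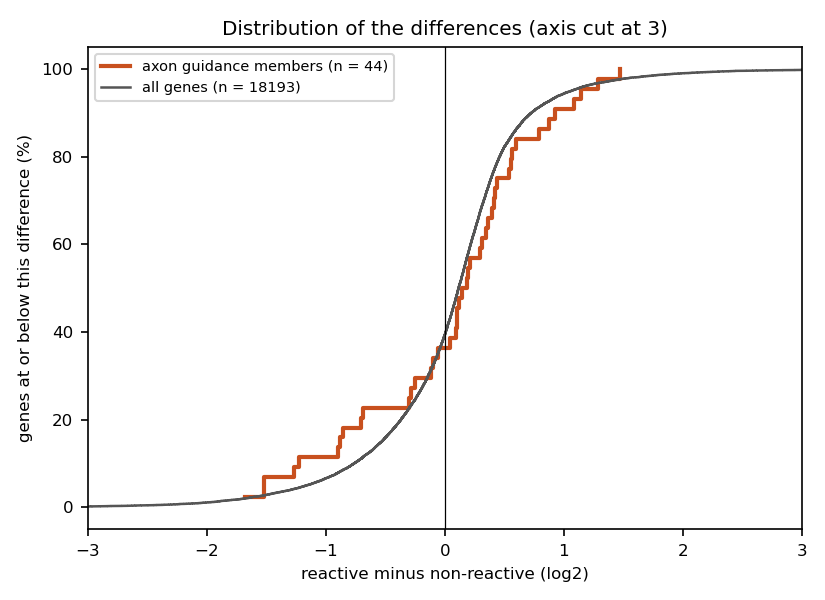
Cumulative share of genes (vertical axis, percent) at or below each difference between reactive and non-reactive samples (horizontal axis, log2), for the 44 axon guidance members and for all 18193 genes. The curves cross near 0 and the members extend from -1.68 to 1.48, within the range of all genes, which continues beyond the axis to -4.70 and 5.85.

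Eph receptors and their ligands made up 18 of the 45 listed genes, beside 19 semaphorins, plexins and neuropilins. Of 9 measured receptors 5 had differences above 0 and 4 below, with a median of 0.05. Ephb3, a B-class receptor for ephrin-B ligands, had values of 7.80, 8.95 and 8.10 (log2) in reactive samples, against 9.49, 9.19 and 9.98 in non-reactive samples. All reactive values lay below all non-reactive values, and the difference was -1.27 (SE 0.37, limma adjusted p = 0.215). Ephb3 was read by a single probe set.

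Epha4, a receptor that binds ligands of both the A and the B class, had values of 5.60, 6.45 and 5.86 in reactive samples, against 6.73, 7.26 and 6.56 in non-reactive samples. The groups did not overlap, although reactive replicate 2 came within 0.2 of the lowest non-reactive array. Its difference was -0.88 (SE 0.31, limma adjusted p = 0.299). Among the 4 further Epha4 probe sets, 1 gave -1.02 with groups that did not overlap, and the others gave -0.41, 0.67 and 0.33. The interval was -1.21 to 0.38 at -0.41 and -1.72 to 3.06 at 0.67, and the probe set at 0.33 was below the median level. The sign therefore depended on the probe set.

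Epha5, a receptor of the A class studied chiefly in neurons, had the largest absolute difference of the family. It had values of 4.29, 8.16 and 3.94 in reactive samples, against 6.92, 7.96 and 6.56 in non-reactive samples. Reactive replicate 2 was above every non-reactive array, and the other reactive arrays were low. The difference was -1.68 with an SE of 1.11 (limma adjusted p = 0.554), and -3.03 without reactive replicate 2 (adjusted p = 0.0716). Leaving out reactive replicate 1 gave -1.09, and leaving out reactive replicate 3 gave -0.92. The mean level of 12 neuronal markers was also highest in reactive replicate 2, at 8.84, against 8.30 and 7.29 in the other reactive samples and 7.98 to 8.52 in non-reactive samples. Of these markers, led by Rbfox3 and Map2, 0 passed, and their summed linear level was 5280 to 12400 in reactive and 8840 to 12600 in non-reactive samples. The part of neuronal RNA in the Epha5 values was not tested. The 3 other probe sets of Epha5 gave differences of 0.09, -0.08 and 0.23.

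Ephb1, another B-class receptor, had the highest mean of the receptor probe sets. Its values were 9.90, 8.80 and 9.89 in reactive samples, against 9.56, 8.73 and 8.60 in non-reactive samples. The groups overlapped, and the difference of 0.57 had an interval of -0.40 to 1.53. Leaving out reactive replicate 2 gave 0.93, and leaving out non-reactive replicate 1 gave 0.86. Ephb4, the ephrin-B2 receptor of veins, differed by 0.40, and Ephb6, a receptor without kinase activity, by 0.54. Epha2, best known from epithelia, differed by 0.05 with an interval of -0.57 to 0.66. Epha7 differed by 0.42 and Epha3 by -0.06, and both had means under 4.74, the median level over all probe sets, where signal and background are hard to separate.

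Among the 8 ephrins 4 differences lay above 0 and 4 below, with a median of 0.05, and none had an unadjusted p of 0.05 or less. Efna5, a glycolipid-anchored ligand of EphA receptors, had values of 7.75, 7.45 and 6.43 in reactive samples, against 7.87, 8.08 and 7.78 in non-reactive samples. The groups did not overlap, but reactive replicate 1 was within 0.1 of the lowest non-reactive array. Its difference was -0.70 (SE 0.36, limma adjusted p = 0.465), and -0.31 without reactive replicate 3. A dimmer Efna5 probe set, with a mean below the median level, gave 0.27.

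Efna2, also an A-class ligand, had values of 7.16, 6.35 and 5.59 in reactive samples, against 6.43, 6.29 and 5.09 in non-reactive samples. The groups overlapped, and the difference of 0.44 had an interval of -0.78 to 1.66. It shrank to 0.013 when non-reactive replicate 3 was left out and to 0.04 for reactive replicate 1, and grew to 0.68 for non-reactive replicate 1 and 0.82 for reactive replicate 3. The remaining A-class ligands Efna1, Efna3 and Efna4 differed by 0.20, -0.10 and 0.41. Of the transmembrane ephrins, Efnb1 differed by -0.12, Efnb2, a ligand of arteries and of glia, by -0.25, and Efnb3, a midline repellent, by 0.36. The Efnb1 interval of -0.67 to 0.43 lay within a 2-fold change. Its other probe sets gave -0.52, with groups that did not overlap, and 0.11.

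**Figure D2:**
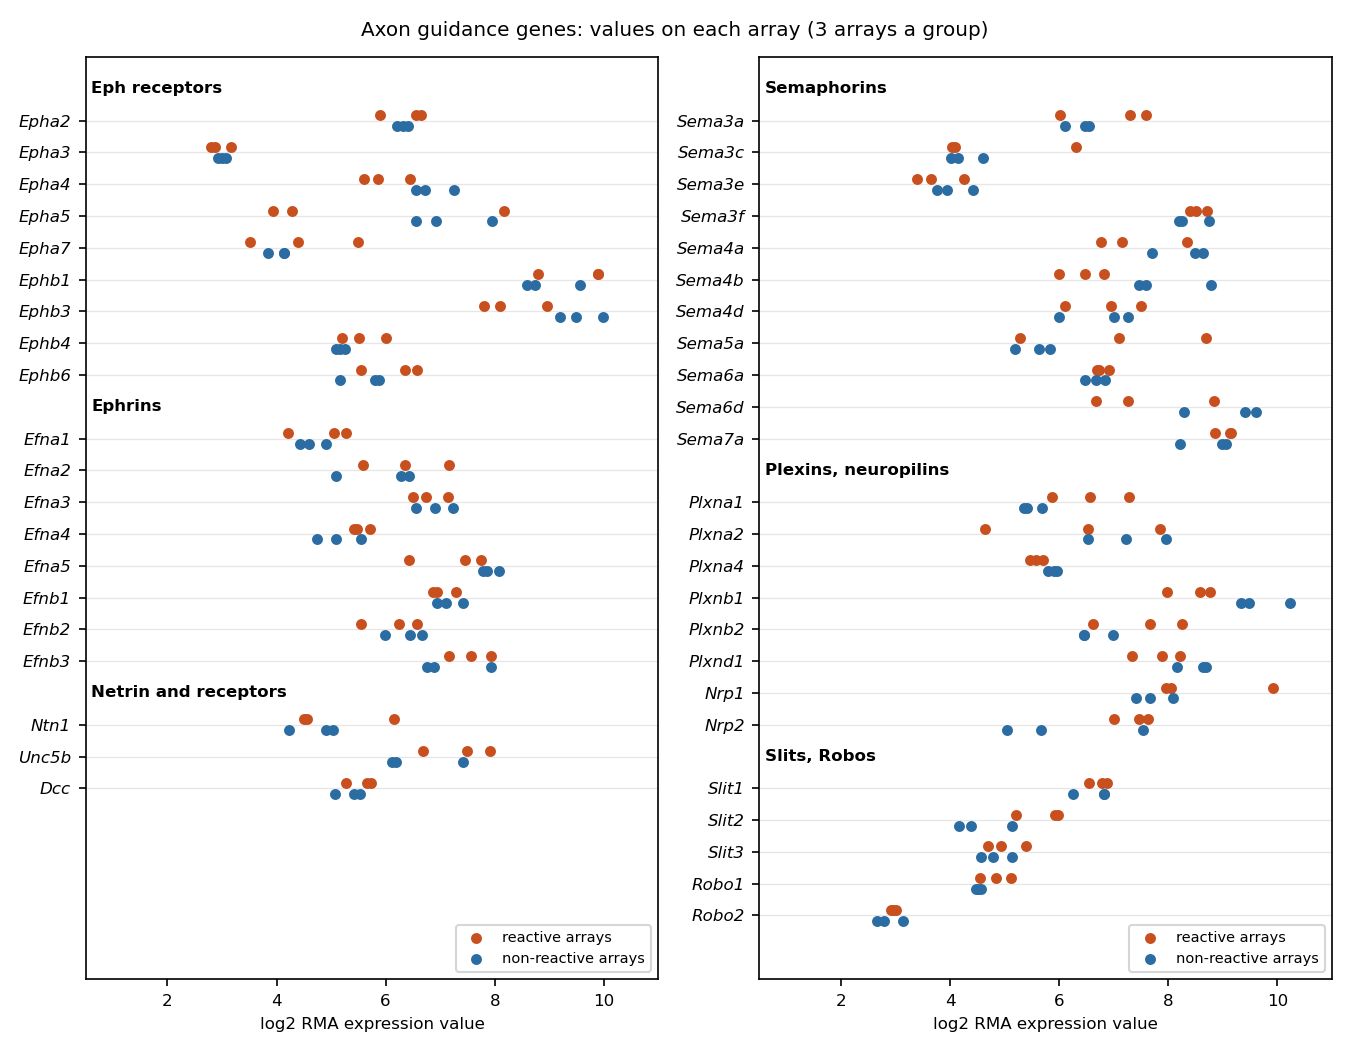
Values of each member (log2 RMA expression, horizontal axis) on each array, with 3 reactive arrays above 3 non-reactive arrays in every row. Groups separated for Epha4, Ephb3, Efna5, Sema4b, Plxna4 and Plxnb1, with reactive arrays lower, and for Plxna1 and Slit2, with reactive arrays higher. Epha5, Plxna2 and Sema5a show reactive arrays that lie far from each other.

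Semaphorins are secreted, membrane-spanning or lipid-anchored. Of 11 measured genes 7 had differences above 0 and 4 below, and the 3 largest absolute values belonged to membrane-bound members. Sema4b, a transmembrane class 4 semaphorin, had values of 5.99, 6.48 and 6.81 in reactive samples, against 7.59, 8.79 and 7.47 in non-reactive samples. The highest reactive array lay below the lowest non-reactive array. Its difference was -1.52 (SE 0.41, limma adjusted p = 0.191), the mean being 2.87-fold lower in reactive samples. The other Sema4b probe set was below the median level and gave -0.11.

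Sema6d, a transmembrane semaphorin that binds plexin-A1, had values of 7.25, 6.67 and 8.83 in reactive samples, against 9.61, 8.29 and 9.41 in non-reactive samples. Reactive replicate 3 reached into the non-reactive range, and the difference was -1.52 (SE 0.62, limma adjusted p = 0.366). With 1 array left out it lay between -2.14, without reactive replicate 3 (adjusted p = 0.128), and -1.06, without reactive replicate 2 (adjusted p = 0.482). Another Sema6d probe set above the median level gave -0.84, and those below it gave 0.12 and -0.16.

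Sema4a, described after its values were seen, is a class 4 semaphorin known from immune cells. It had values of 7.15, 6.76 and 8.35 in reactive samples, against 7.70, 8.63 and 8.48 in non-reactive samples. The groups overlapped at this probe set, with a difference of -0.85, and did not overlap at its other probe set, with a difference of -0.88 (SE 0.27, limma adjusted p = 0.24). The first difference was -0.52 without reactive replicate 2 and -1.32 without reactive replicate 3. Microglia and macrophage markers had a mean level of 9.50 in reactive and 7.45 in non-reactive samples, and their part in the Sema4a values was not tested. Sema4d, a plexin-B1 ligand of T cells and oligodendrocytes, differed by 0.10, with overlapping groups and a range of -0.28 to 0.47 when each array was left out in turn. Its other probe sets gave 0.53 and 0.81, and at 0.81 the groups did not overlap. The oligodendrocyte marker list, led by Mbp and Cnp, had a mean level of 9.82 in reactive and 8.38 in non-reactive samples and a summed linear level of 24700 to 26200 in reactive and 20000 to 25500 in non-reactive samples. Of its 10 measured genes 1 rose, and their part in the Sema4d values was not tested.

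Sema5a, also described after its values were seen, is a transmembrane semaphorin with thrombospondin repeats. It had values of 5.28, 8.69 and 7.09 in reactive samples, against 5.62, 5.83 and 5.19 in non-reactive samples. Reactive replicate 2 was highest, and reactive replicate 1 lay within the non-reactive range. The difference was 1.48 with an SE of 0.79 (limma adjusted p = 0.478). It was 2.34 without reactive replicate 1 and 0.64 without reactive replicate 2. The 3 other Sema5a probe sets, all below the median level, gave 0.51, 0.36 and 0.35.

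Sema7a, a glycolipid-anchored semaphorin that binds integrins and plexin-C1, had the highest mean of the semaphorin probe sets. Its values were 9.13, 9.15 and 8.85 in reactive samples, against 8.98, 9.07 and 8.20 in non-reactive samples. The groups overlapped, and the interval of -0.39 to 0.98 lay within a 2-fold change. The difference of 0.29 was 0.023 without non-reactive replicate 3 and 0.45 without non-reactive replicate 2. Sema6a, another transmembrane semaphorin, differed by 0.12, with an interval of -0.35 to 0.60, and its dimmer probe sets gave 0.75 and -0.02.

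The secreted class 3 semaphorins had a median difference of 0.35, beside 0.10 for the 7 membrane-bound members, and the types were not tested against each other. Sema3a, the ligand of neuropilin-1 that collapses growth cones, differed by 0.60 with overlapping groups. Sema3f, which acts through neuropilin-2, differed by 0.14 with an interval of -0.41 to 0.69, and its other probe sets gave 0.15 and 0.14. Sema3c, described after its values were seen, differed by 0.55 with reactive replicate 1 at 6.31, against 4.09 and 4.03 in the other reactive samples and 4.02 to 4.60 in non-reactive samples. Without that array the difference was -0.20. Sema3e, the plexin-D1 ligand, differed by -0.28 and lay below the median level, as did Sema3c.

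Plexins and neuropilins, the receptors of semaphorins, held the member with the lowest p. Plxnb1, a receptor for Sema4d, had values of 7.98, 8.59 and 8.77 in reactive samples, against 9.32, 10.22 and 9.48 in non-reactive samples. The groups were separate, and the reactive mean was 2.35-fold lower. The difference was -1.23 (SE 0.33, interval -2.02 to -0.44, limma adjusted p = 0.188). Its other probe set had values of 8.55, 7.61 and 7.62 in reactive samples, against 9.31, 9.80 and 9.61 in non-reactive samples. There the groups were also separate, and the difference was -1.65 (SE 0.32, adjusted p = 0.0853). When the probe sets of each gene were averaged, Plxnb1 fell by 1.44 and was the only member to pass in any of 15 alternatives (adjusted p = 0.0445, range over the alternatives 0.0445 to 0.438). The astrocyte marker list had a mean level of 9.46 in reactive and 10.62 in non-reactive samples, a difference of -1.16, and 4 of its 11 measured genes fell while 1, Gfap, rose. Its summed linear level was 19200 to 21000 in reactive and 35900 to 45800 in non-reactive samples. Whether Plxnb1 followed that list was not tested.

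Plxna1 is a co-receptor of neuropilins and a receptor of Sema6d. It had values of 7.27, 6.56 and 5.86 in reactive samples, against 5.69, 5.35 and 5.40 in non-reactive samples. Every reactive array was above every non-reactive array, with a difference of 1.09 (SE 0.37, limma adjusted p = 0.289). A second Plxna1 probe set below the median level gave 0.11. Plxnb2, described after its values were seen, is a plexin of glia and macrophages. It had values of 7.66, 6.62 and 8.26 in reactive samples, against 6.99, 6.45 and 6.46 in non-reactive samples. The groups overlapped and the difference was 0.88 (SE 0.43, limma adjusted p = 0.442). It was 1.32 without reactive replicate 2 and 0.51 without reactive replicate 3. Of 14 measured microglia and macrophage markers, led by Csf1r and Ctss, 6 rose and 0 fell, with a summed linear level of 23000 to 33700 in reactive and 8040 to 8640 in non-reactive samples. Their part in the plexin values was not tested.

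Nrp2, a receptor for class 3 semaphorins and vascular growth factors, had values of 7.01, 7.47 and 7.62 in reactive samples, against 5.66, 5.04 and 7.54 in non-reactive samples. Non-reactive replicate 3 lay among the reactive arrays. The difference was 1.29 (SE 0.62, limma adjusted p = 0.436), and 2.02 without that array (adjusted p = 0.123). It was 0.77 without non-reactive replicate 2. The other Nrp2 probe sets gave 0.48, 0.49 and 0.47.

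Nrp1, its relative, was described after its values were seen. Its brightest probe set had values of 8.05, 7.95 and 9.92 in reactive samples, against 7.66, 7.41 and 8.08 in non-reactive samples. Reactive replicate 3 stood well above the rest, and the difference of 0.93 became 0.29 without it. A dimmer probe set had values of 7.79, 7.27 and 7.89 in reactive samples, against 5.59, 6.35 and 6.32 in non-reactive samples. There the groups were separate with a difference of 1.56 (SE 0.30, limma adjusted p = 0.0846). Another probe set above the median level gave 0.88, also with separate groups (limma adjusted p = 0.387). The last, below that level, gave -0.56 with overlapping groups. Reactive replicate 3 was also highest for the mean level of 5 fibroblast markers, at 6.97, against 4.29 and 4.11 in the other reactive samples and 4.18 to 4.43 in non-reactive samples. Endothelial markers were at 5.25 in that array, against 4.61 and 4.34 in the other reactive samples and 4.16 to 4.56 in non-reactive samples, and 5 of 11 were below the median level on every array. The summed linear level was 97.2 to 1020 in reactive and 112 to 151 in non-reactive samples for fibroblast markers, led by Col1a2 and Col1a1, and 296 to 1380 in reactive and 261 to 372 in non-reactive samples for endothelial markers, led by Kdr and Esam. The part of either cell type in the Nrp1 values was not tested.

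The remaining plexins had lower means in reactive samples. Plxnd1, a vascular plexin, differed by -0.69 (interval -1.39 to 0.02). Plxna2, described after its values were seen, is a plexin that pairs with neuropilins and binds class 6 semaphorins. It had values of 7.85, 6.52 and 4.64 in reactive samples, against 7.23, 6.53 and 7.96 in non-reactive samples. Reactive replicate 3 was lowest, and the difference of -0.90 was -0.05 without it. Leaving out reactive replicate 1 gave -1.66, and leaving out non-reactive replicate 3 gave -0.54. The other Plxna2 probe sets gave -1.98, -0.53 and -0.01. Plxna4 differed by -0.30 with groups that did not overlap, and its interval of -0.75 to 0.14 lay within a 2-fold change.

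**Figure D3:**
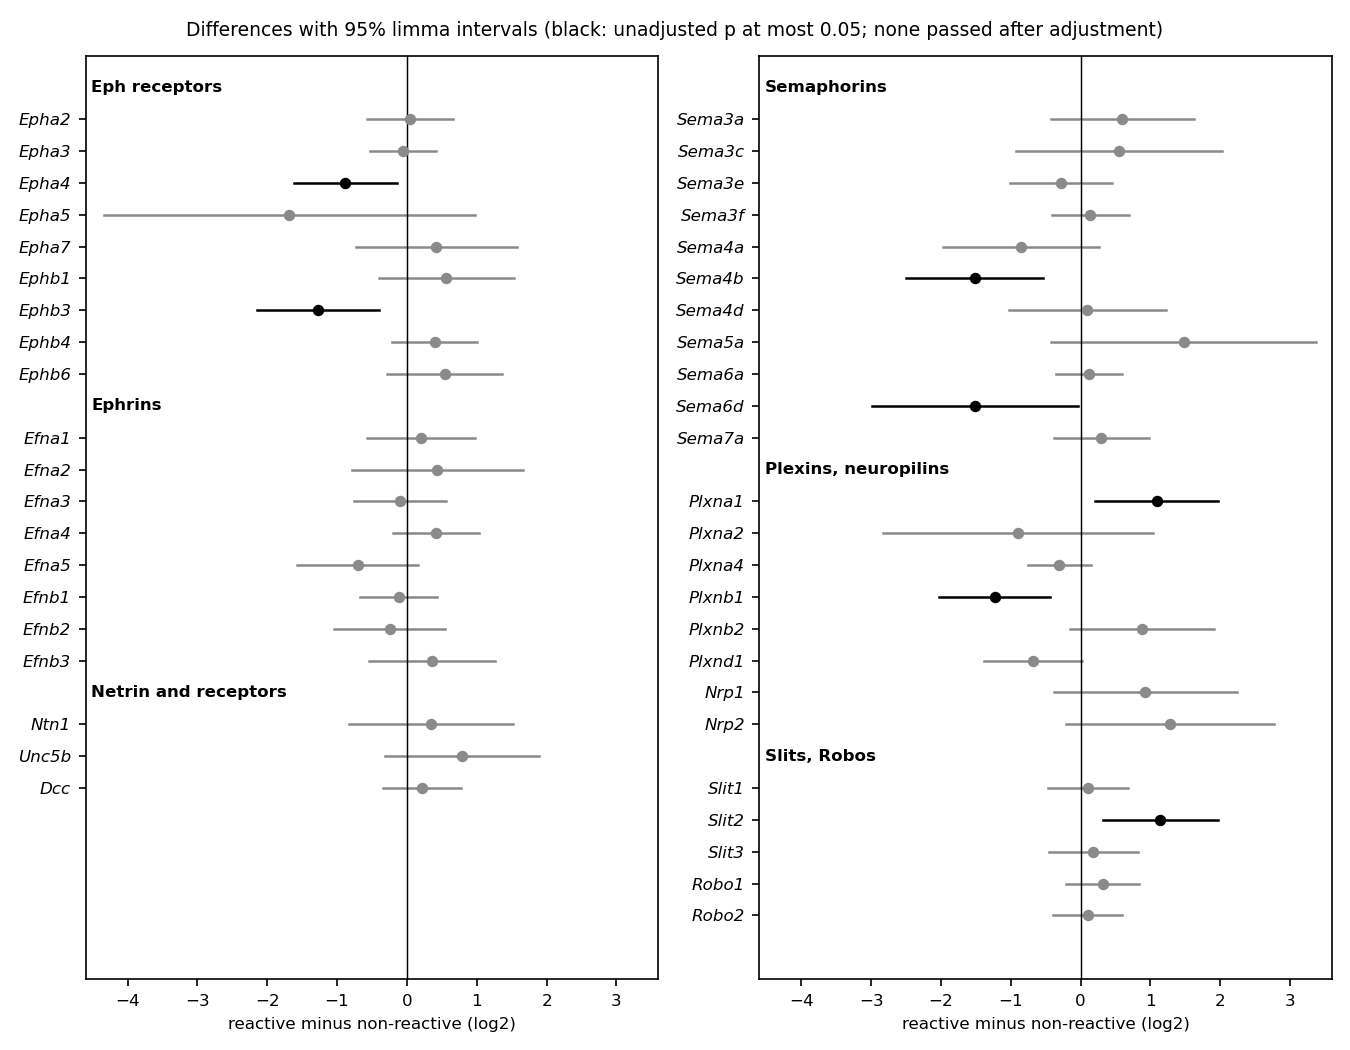
Difference between reactive and non-reactive samples (log2, points) with its 95% limma interval (lines) for each of the 44 members. The 7 members in black had an unadjusted p of 0.05 or less, with Slit2 and Plxna1 above 0 and Plxnb1, Sema4b, Ephb3, Epha4 and Sema6d below it, and none passed after adjustment.

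In the Slit and Robo system all 5 differences lay above 0, with a median of 0.18. Slit2, a secreted repellent of axons and migrating cells, had values of 5.98, 5.21 and 5.91 in reactive samples, against 5.13, 4.17 and 4.39 in non-reactive samples. The groups were separate by less than 0.1, and the reactive mean was 2.21-fold higher. Its difference was 1.14 (SE 0.34, limma adjusted p = 0.235). At 4.56 the non-reactive mean was under the median level, so this size is uncertain, and 2 dimmer Slit2 probe sets gave 0.03 and 0.25.

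Slit1 had the highest mean of these probe sets, with values of 6.79, 6.87 and 6.55 in reactive samples, against 6.83, 6.83 and 6.24 in non-reactive samples. The groups overlapped almost fully, with an interval of -0.47 to 0.68. Slit3 differed by 0.18. Robo1, the Slit receptor of many neurons, had values of 4.85, 4.54 and 5.11 in reactive samples, against 4.48, 4.56 and 4.51 in non-reactive samples. Its difference was 0.32 just below the median level and 0.17 without reactive replicate 3. The receptor Robo2 was the dimmest member at 2.95 in reactive and 2.86 in non-reactive samples. Another Robo1 probe set went the other way, with values of 2.66, 3.14 and 2.65 in reactive samples, against 5.00, 3.48 and 5.51 in non-reactive samples. There the groups were separate with a difference of -1.85 (SE 0.52, limma adjusted p = 0.204), and the remaining one gave 0.41 with separate groups, so the direction of Robo1 is unsettled.

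Netrin and its receptors had 3 differences above 0. Unc5b, a repulsive netrin receptor also found on blood vessels, had values of 6.69, 7.49 and 7.91 in reactive samples, against 6.19, 6.11 and 7.42 in non-reactive samples. Non-reactive replicate 3 lay inside the reactive range, and the difference was 0.79 (SE 0.46, limma adjusted p = 0.51). It was 1.21 without that array and 0.52 without reactive replicate 3. A second Unc5b probe set gave 0.05. Ntn1, the netrin-1 ligand, had values of 4.55, 4.50 and 6.16 in reactive samples, against 5.04, 4.90 and 4.23 in non-reactive samples. Only reactive replicate 3 was above the non-reactive range, so the difference of 0.35 became -0.20 without it. It was 0.098 without non-reactive replicate 3 and 0.63 without reactive replicate 2. Dcc, the attractive receptor, differed by 0.21 at its brightest probe set and by -0.54 and 0.49 at the others.

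Ligands can be read beside their receptors. For the plexin-B1 pair, the receptor Plxnb1 was at -1.23 and its ligand Sema4d at 0.10. Sema6d was at -1.52 while its receptor Plxna1 was at 1.09. For class 3 signalling, Sema3a was at 0.60 with Nrp1 at 0.93, and Sema3f at 0.14 with Nrp2 at 1.29. Sema3e and Plxnd1 were at -0.28 and -0.69. Slit2 was at 1.14 and Robo1 at 0.32, or at 0.47 and -0.37 with the probe sets of each gene averaged. Efnb1 and Efnb2 were at -0.12 and -0.25 with Ephb3 at -1.27 and Ephb1 at 0.57. These are log2 differences of separate genes, none of which passed, and no test was made of any pair.

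The members had 108 probe sets with exactly 1 symbol, and 33 members had more than 1. Of the 64 probe sets besides the brightest, 43 had the same sign as the brightest, and 21 of 25 did where the other probe set was at or above the median level. An unadjusted p of 0.05 or less was found for 13 of the 108, or 12%, beside 14% of all probe sets with 1 symbol, and 0 passed after adjustment, beside 0.901%. Every other probe set above the median level had the sign of the brightest one for Sema3f, Sema4a, Sema4d, Sema6d, Plxna2, Plxna4, Plxnb1, Nrp1, Nrp2, Slit1, Unc5b and Efna2. It did not for Epha4, Epha5, Efna3 or Efnb1. Averaging the probe sets of each gene was followed here for the 17 members named by the rule set out below. Among them the difference was over 1.5 times smaller for Epha4 (-0.26), Epha5 (-0.36), Sema4b (-0.81), Sema6d (-0.60) and Plxna1 (0.60). The same held for Efna5 (-0.21), Nrp2 (0.68), Slit2 (0.47) and Unc5b (0.42). Sema5a, at 1.48 by its brightest probe set, was not among the 17, and its other probe sets gave 0.51, 0.36 and 0.35.

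**Figure D4:**
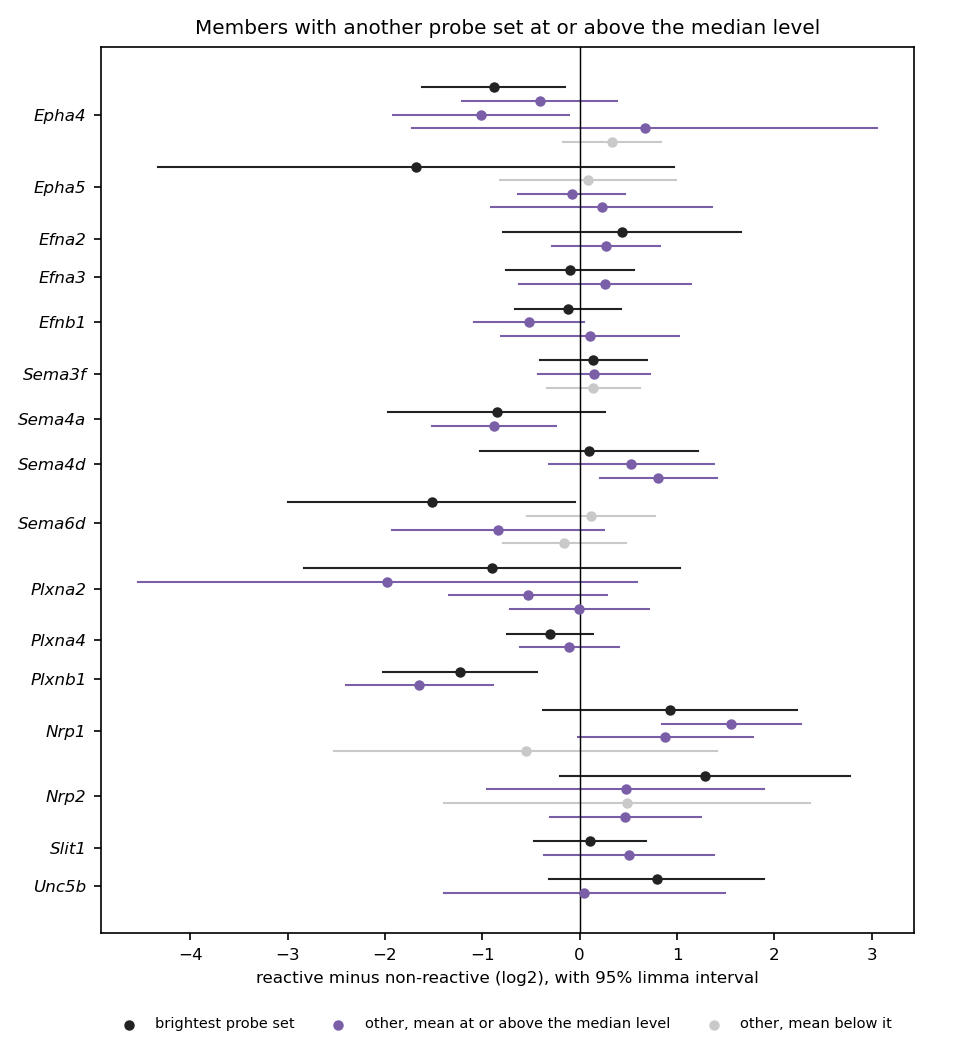
Difference between reactive and non-reactive samples (log2, points) with its 95% limma interval (lines) for every probe set of members that had another probe set at or above the median level. Both Plxnb1 probe sets lie below 0 with intervals that exclude it, while those of Epha4 and Epha5 lie on both sides of 0.

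Spread between replicate arrays was larger in the reactive group. The SD was larger in reactive than in non-reactive samples for 29 of 44 members, or 65.9%, as for 65.9% of all genes. Its median over the members was 0.446 in reactive and 0.341 in non-reactive samples, beside 0.396 in reactive and 0.281 in non-reactive samples over all genes. The widest reactive spreads were those of Epha5 (SD 2.34), Sema5a (1.70), Plxna2 (1.62) and Sema3c (1.30), each with 1 array far from the others or all 3 far apart. In non-reactive samples Nrp2 had the widest spread (SD 1.30).

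Further genes of the same systems were listed separately. Of 34 other guidance ligands and receptors 0 passed with limma, and 2 above 0 and 1 below 0 had an unadjusted p of 0.05 or less (8.82%, beside 15% of all genes). Those 3, identified after their values were seen, were the plexin Plxnb3 at 1.46, the receptor Epha1 at 0.60 and Flrt1, a ligand of Unc5 receptors, at -0.78. Neo1, a receptor for netrin and repulsive guidance molecules, had values of 10.14, 9.86 and 10.98 in reactive samples, against 10.90, 11.02 and 11.35 in non-reactive samples, and its difference was -0.76 (limma adjusted p = 0.391). Reactive replicate 3 overlapped the non-reactive range. Unc5c, a relative of Unc5b, differed by 0.30.

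**Figure D5:**
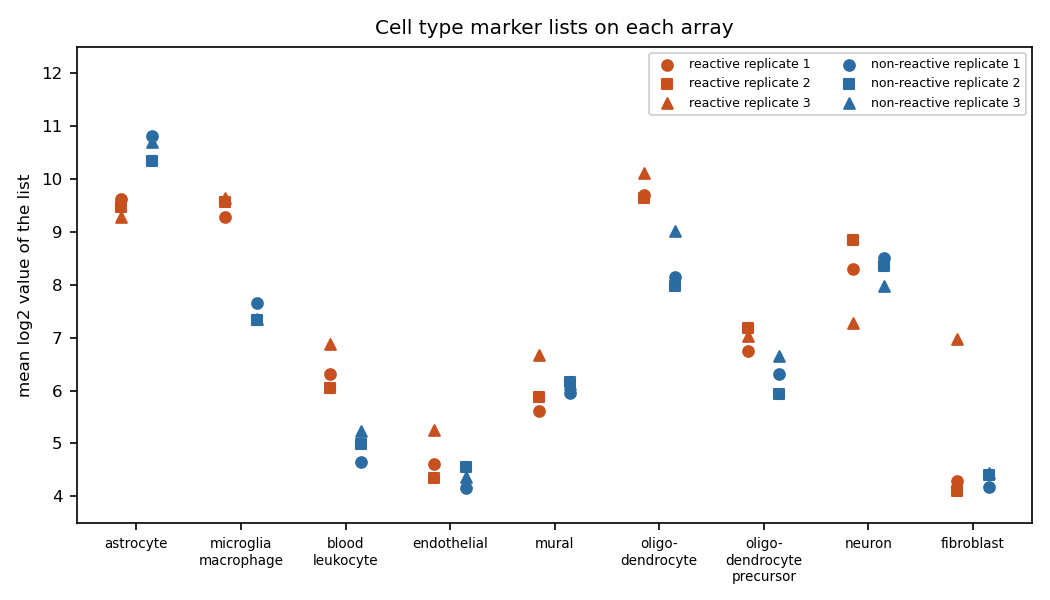
Mean level (log2 RMA expression, vertical axis) of the marker genes of each cell type on each array, reactive arrays left of non-reactive arrays. Microglia and macrophage markers were at 9.28 to 9.65 in reactive and 7.33 to 7.67 in non-reactive samples, astrocyte markers at 9.29 to 9.62 in reactive and 10.35 to 10.82 in non-reactive samples, and fibroblast markers were high only in reactive replicate 3.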

How the data were processed

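The authors deposited log2 expression values per probe set from RMA, a background, quantile and probe summary method named in the submitters' processing notes. The RMA version and settings were not given in the sources used here. Of 45101 probe sets on each of 6 arrays, 64 controls were removed before testing. Among the 45037 others 34945 had exactly 1 gene symbol, 932 several and 9160 none. The files give no detection call, so 4.74, the median of all probe set means, marks dim probe sets. The array number limits the precision.

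Reactive minus non-reactive was fitted on all 6 arrays without covariates (limma 3.58.1, R 4.3.3, two-sided, Benjamini-Hochberg over 45037 probe sets, threshold 0.05, moderated SE, 95% intervals). The fit was tested on simulated data. Replicates are pools the labels call biological. Deviations of same-numbered arrays from their group means correlated at -0.07, -0.11 and 0.04, beside -0.11 to 0.19 for arrays with different numbers. Deviations of 3 arrays sum to 0 in each group, so these values cannot settle whether the numbers pair samples. The fit had no block, and a block was run as an alternative.

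Members, lists and tests were chosen with earlier results of these data known. All members are named. Values of every array are given for members with an unadjusted p of 0.05 or less and, per family, for those with the 2 largest differences and the highest mean, and for others said to be described after their values were seen. Of the blood leukocyte, mural and oligodendrocyte precursor lists counts alone are given. A list of genes acting downstream of the receptors is not reported here. Alternatives covered normalisation, variance model, array weights, dim or cross-hybridising probe sets, averaged probe sets, a replicate block and each array left out. Background correction was not varied, because scanner files were not used here.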

Additional observations from a re-analysis of the deposited data

How the results depend on the processing

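The count of members that passed was 0 above and 0 below in 14 of 15 alternatives; when the probe sets of each gene were averaged, 1 member, Plxnb1, fell (-1.44, limma adjusted p = 0.0445). Between 6 and 10 members had a limma unadjusted p of 0.05 or less. Where all 18193 genes were tested, 1909 to 2979 of them had such a p. The count of all genes that passed after adjustment was 110 with eBayes using a trend and robust fit, and 0 to 77 with 1 array left out. The 3 fits at 0 had 1909, 2039 and 2127 genes at an unadjusted p of 0.05 or less. With the replicate number as a block 0 genes and 0 members passed after adjustment. There 10 of 44 members and 2401 of 18193 genes had an unadjusted p of 0.05 or less. For deviations from the group means, reactive replicate 2 correlated best with non-reactive replicate 1, at 0.19. Such values cannot settle whether the numbers pair samples. Of the 17 members named by rule, 14 kept their sign in all 15 alternatives. The exceptions were Robo1 at -0.37 when its probe sets were averaged, Ntn1 at -0.20 without reactive replicate 3 (range with 1 array left out -0.20 to 0.63) and Slit1 at -0.089 without non-reactive replicate 3 (range -0.089 to 0.20); the cause was not tested beyond the values given for these genes. Of all 44 members 28 kept their sign. With 6 arrays, the standard errors of the 44 members ran from 0.187 to 1.11 when each gene had its brightest probe set. In that fit 9 members had differences over 2-fold, and none passed. Among them were Sema4b (-1.52, limma adjusted p = 0.191) and Plxnb1 (-1.23, adjusted p = 0.188), both above the median level. The limma intervals of 30 members reached past a 2-fold change. Small changes were therefore not detectable, and larger ones could also be missed, in bright as well as dim members.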
